A study of Mus musculus with 17 samples.

Results

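The 10 genes described here are p53 targets that act in DNA repair and metabolism: Xpc, Ddb2, Ercc5, Polk, Rrm2b, Tigar, Sesn1, Ephx1, Ak1 and Trp53inp1. They were chosen by name, as listed targets of p53 in excision repair, translesion synthesis and metabolism, and all 10 were found among the 31517 genes of the deposited tables. RNA was measured by sequencing poly-A selected RNA from whole cerebella of C57BL/6 mice at postnatal day 3, with the meninges removed. All mice carried Math1-Cre, a recombinase made in the progenitors that divide in the outer layer of the cerebellum and become granule neurons. The Atr/Bax/Bak-deleted cerebella (n = 5) carried Atr-loxP/loxP, Bax-loxP/loxP and Bak--/-, and their controls, the Bax/Bak-deleted cerebella (n = 4), carried the same Bax and Bak alleles. The Atr/p53-deleted cerebella (n = 4 deep libraries of 5) carried Atr-loxP/loxP and p53-loxP/loxP, and their controls, the p53-deleted cerebella (n = 3), carried p53-loxP/loxP alone. Atr encodes the kinase that answers stalled replication forks, and Bax and Bak open mitochondria during apoptosis. Each group is named here by its genotype label. No group had both working apoptosis through Bax and Bak and working p53 in the Cre-expressing cells, and no wild-type cerebella were compared. Atr, Bax and p53 were only loxP-flanked, so cells without Cre keep them, and a change in one cell type is diluted by the rest of the tissue. In such bulk samples fewer cells of a type and less RNA per cell cannot be told apart.

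The 16 deep libraries held 42987953 to 100659645 estimated counts, so that 1 count was worth at most 0.0233 CPM (counts scaled by TMM to a common library size), while the fifth Atr/p53-deleted library held 13601 counts and was left out. Bak1, Bax and Trp53, which encodes p53, matched the labels as far as they can be read. Bak1 averaged 0.435 and 0.365 CPM in the groups with null Bak, against 38.3 and 39.6 CPM in the other groups. In p53-deleted against Bax/Bak-deleted controls, the log2 differences were 0.96 ± 0.11 for Bax and -0.87 ± 0.11 for Trp53 (SE, edgeR adjusted p = 8.45e-05 and 0.000183). For Atr no call was made without Bax and Bak or without p53 (edgeR adjusted p = 0.280 and 0.977). Atr averaged 40.0 ± 3.07 CPM in Atr/Bax/Bak-deleted cerebella and 43.4 ± 3.99 CPM in Bax/Bak-deleted controls, and 37.1 ± 2.83 CPM in Atr/p53-deleted cerebella and 37.0 ± 1.12 CPM in p53-deleted controls (SD), a count over the whole gene and the whole tissue that does not show recombination. Markers of cerebellar identity were expressed in every library, with sums over 7 genes of 1551 to 1776 CPM in Atr/Bax/Bak-deleted cerebella and 2042 to 2536 CPM in their controls, and of 1630 to 2029 CPM in Atr/p53-deleted cerebella and 1990 to 2002 CPM in theirs, while 5 forebrain markers summed to 37.5 to 63.6 CPM. The sample names carry number series: the Atr/Bax/Bak-deleted libraries are all of series 1836 and their controls of series 100019 and 1842, so series and genotype cannot be told apart in that comparison. In the p53-deleted background all Atr/p53-deleted libraries and replicate 1 of the p53-deleted controls are of series 1843, and the other 2 controls of series 1845. Nothing in the labels says that the samples of a group came from separate litters or extractions, so the p-values measure the spread between these samples. Replicate 2 of the Atr/p53-deleted group stood apart from its group, with the lowest sum of S phase genes (1001 CPM, group median 1331 CPM). Genes outside that list stood apart too. Ddb1 was lowest there, at 297 CPM against 414 to 487 CPM in the rest of the group, while Ddb2, Rrm2b and Trp53inp1 were highest. Whether tissue, RNA quality or library preparation set this sample apart was not tested.

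p53 is a transcription factor that is kept low in unstressed cells and accumulates after DNA damage or replication stress, when it binds a response element made of a pair of decamers near its target genes. Besides genes of arrest and death it switches on genes that repair DNA and genes that adjust metabolism. Global genome excision repair removes bulky lesions: DDB2 and XPC find the damage and ERCC5, the nuclease XPG, cuts the damaged strand beside it. Polymerase kappa, the product of Polk, copies across lesions that stop the replicative polymerases, and Rrm2b encodes the small subunit of ribonucleotide reductase that supplies deoxynucleotides outside S phase. TIGAR lowers fructose bisphosphates and turns glucose toward the pentose phosphate pathway, sestrin 1 restrains the growth kinase complex mTORC1, EPHX1 hydrolyses epoxides, AK1 interconverts adenine nucleotides, and TP53INP1 acts in autophagy and amplifies the p53 response. The control of DDB2 and TIGAR by p53 was established in human cells.

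Upstream sequence is shown for Ak1, whose transcripts from separate starts had unequal estimated rises, and for Sesn1, where a window held an exact match to the p53 decamer. The windows are the 250 bases before RefSeq starts on GRCm38.p6, both on the plus strand of their chromosomes: chr2:32625187-32625436 for Ak1-202, chr2:32629250-32629499 for the downstream start of Ak1-201, with 4 bases between the window and the annotated start, and chr10:41887189-41887438 for Sesn1-201. Capitals mark matches to the p53 response-element decamer with at most 1 mismatch outside its central core, a pattern that reads the same on both strands.
Ak1-202: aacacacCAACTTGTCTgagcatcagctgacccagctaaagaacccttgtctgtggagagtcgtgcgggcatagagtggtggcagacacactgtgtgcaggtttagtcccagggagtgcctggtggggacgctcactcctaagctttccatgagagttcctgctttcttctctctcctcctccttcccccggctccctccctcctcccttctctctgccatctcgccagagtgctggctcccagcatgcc
Ak1-201: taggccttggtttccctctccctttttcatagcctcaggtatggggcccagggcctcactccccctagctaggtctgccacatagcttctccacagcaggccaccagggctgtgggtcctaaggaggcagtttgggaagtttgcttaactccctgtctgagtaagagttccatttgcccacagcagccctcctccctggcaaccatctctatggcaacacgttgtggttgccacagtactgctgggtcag
Sesn1-201: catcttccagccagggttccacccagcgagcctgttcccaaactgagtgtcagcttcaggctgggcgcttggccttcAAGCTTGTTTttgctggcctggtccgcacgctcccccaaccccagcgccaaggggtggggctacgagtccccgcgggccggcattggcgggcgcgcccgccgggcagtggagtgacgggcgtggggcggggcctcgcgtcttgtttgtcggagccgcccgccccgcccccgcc
The decamer of the Ak1-202 window began 243 bases before the start and that of Sesn1-201 began 173 bases before it, while the window of Ak1-201 held none. RefSeq windows were found for 6 of the 10 genes (Ercc5, Ephx1, Ak1, Tigar, Sesn1, Polk), 11 windows in all, and not for Xpc, Ddb2, Rrm2b and Trp53inp1. A decamer with at most 1 mismatch was present in 5 of these 11 windows and in 34.4% of 32851 mouse windows of the same length. An exact decamer was present in 2 of the 11, the Sesn1-201 window and an internal Polk window far from the expressed start, against 7.13% of all windows, and a pair of exact decamers within 13 bases of each other was present in 0.0639% of all windows. These matches describe the letters of the windows and are not evidence of binding.

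With Bax and Bak deleted, deletion of Atr went with higher RNA of 7 of the 10 genes and lower RNA of 3, all past an adjusted p of 0.05. In this comparison 44.5% of 17425 tested genes were called, 22.5% of the tested genes higher and 22% lower, so a call alone sets these genes little apart and the sizes matter more. Trp53inp1 rose 3.25-fold, Polk 2.27-fold, Ak1 2.24-fold and Ephx1 2.04-fold, Ercc5 rose 1.52-fold, and Ddb2 and Xpc rose by less. Rrm2b, Tigar and Sesn1, also listed p53 targets, were lower. The median log2 fold change of the 10 genes was 0.49, against 0.04 over all genes tested. The groups did not overlap in 6 genes that were higher and 2 that were lower, in a comparison where 38.3% of genes did not overlap.

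**Figure D1:**
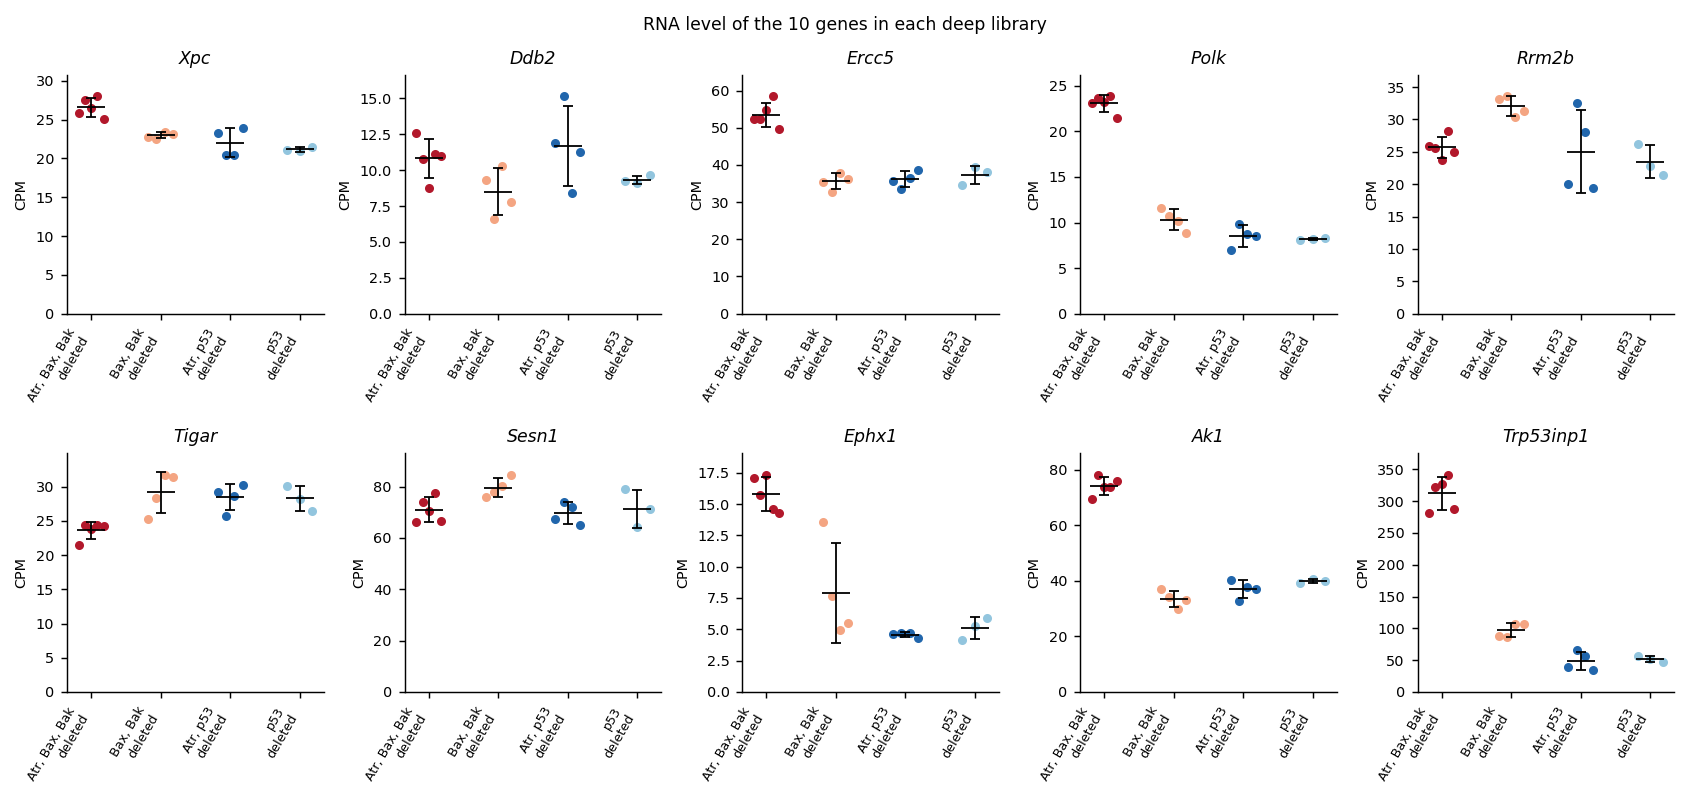
Level of each of the 10 genes in every deep library, in CPM on the vertical axis, with 1 point per cerebellum and the group mean ± SD in black. In Polk, Ercc5, Ak1 and Trp53inp1 the Atr/Bax/Bak-deleted points on the left lie clear of the other 3 groups; in Rrm2b and Tigar they lie below the Bax/Bak-deleted controls.

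The 3 excision repair genes rose to unequal extents. Ercc5 (chr1:44147744-44181260, plus strand, GRCm38) had 52.3, 52.4, 54.7, 58.5 and 49.8 CPM in the Atr/Bax/Bak-deleted cerebella, against 35.3, 32.7, 37.9 and 36.3 CPM in the Bax/Bak-deleted controls. Every Atr/Bax/Bak-deleted sample was above every control, and the log2 fold change was 0.61 ± 0.06 (SE, edgeR adjusted p = 1.91e-05). Xpc (chr6:91489305-91515888, minus strand) had 25.8, 27.6, 26.4, 28.0 and 25.1 CPM in the Atr/Bax/Bak-deleted cerebella and 22.8, 22.5, 23.4 and 23.1 CPM in the controls. The difference was small, 0.23 ± 0.05 (edgeR adjusted p = 0.00289), yet the groups did not overlap. Ddb2 (chr2:91211572-91236982, minus strand) had 12.6, 10.7, 8.77, 11.1 and 10.99 CPM in the Atr/Bax/Bak-deleted cerebella and 9.33, 6.62, 10.3 and 7.78 CPM in the controls. These groups overlapped, since the lowest Atr/Bax/Bak-deleted sample lay below the 2 highest controls, and the log2 fold change of 0.37 ± 0.14 was called narrowly (edgeR adjusted p = 0.0468). The Ddb2 call was lost when any one of 7 of the 9 libraries was left out (lowest 0.24, without replicate 2 of the controls, adjusted p = 0.159), and Ddb2 was called in 8 of 20 alternative settings. Ddb2 also overlaps Acp2 on the opposite strand, which averaged 80.7 CPM, and whether the counting used strand is not given in the sources used here. Ddb1, which encodes the partner of DDB2 in damage recognition, was not called (-0.08 ± 0.05, edgeR adjusted p = 0.176).

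Polk (chr13:96480690-96542579, minus strand) had 23.1, 23.7, 23.2, 23.9 and 21.5 CPM in the Atr/Bax/Bak-deleted cerebella, against 11.5, 10.7, 10.1 and 8.86 CPM in the controls. The lowest Atr/Bax/Bak-deleted sample was well above the highest control, and the log2 fold change was 1.18 ± 0.08 (edgeR adjusted p = 2.29e-06). Among 15 other genes of translesion synthesis and its regulation 7 were lower and 1 was higher, with a median log2 fold change of -0.17. Those of smallest p were Usp1 (-0.94 ± 0.07), which removes ubiquitin from PCNA, Rad18 (-0.71 ± 0.07), which puts it there, and the sliding clamp gene Pcna (-1.27 ± 0.13), all with edgeR adjusted p below 0.05. The 30 other genes of excision repair behaved likewise, with 15 lower and 1 higher and a median of -0.12; Rbx1 (-0.37 ± 0.04), of the ubiquitin ligase that works with DDB2, and the single-strand binding subunits Rpa2 (-0.63 ± 0.07) and Rpa3 (-0.78 ± 0.09) had the smallest p. Several of these genes, such as Pcna, Rpa2 and Rpa3, also act in replication, and all 15 of the S phase genes counted were lower, with sums of 694 to 854 CPM in Atr/Bax/Bak-deleted cerebella and 1390 to 1465 CPM in controls. The part of the S phase fraction in these differences was not tested.

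Rrm2b (chr15:37923952-37961318, minus strand) had 25.9, 25.6, 23.7, 28.2 and 25.0 CPM in the Atr/Bax/Bak-deleted cerebella, against 33.1, 33.6, 30.4 and 31.3 CPM in the controls. All 5 Atr/Bax/Bak-deleted values were below the lowest control, and the log2 fold change was -0.30 ± 0.06 (edgeR adjusted p = 0.00147). The other subunits of ribonucleotide reductase were lower by more. Rrm2, the small subunit used in S phase, had 60.1, 61.0, 72.0, 73.7 and 63.1 CPM in Atr/Bax/Bak-deleted cerebella and 131, 133, 129 and 129.96 CPM in controls. Its log2 fold change was -0.97 ± 0.06, with no overlap, and that of the large subunit Rrm1 was -0.71 ± 0.08. Rrm2b shared 7.19% of its 31-base words with other genes, mostly pseudogenes, and Rrm2 shared 11.98%. Words were compared in the transcript's own direction only, so these shares are minimums. At least a small part of the counts of both genes depends on how reads were divided.

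The metabolic genes did not move together. Tigar (chr6:127085116-127109557, minus strand) had 21.5, 24.4, 23.8, 24.3 and 24.2 CPM in the Atr/Bax/Bak-deleted cerebella and 25.4, 28.3, 31.8 and 31.4 CPM in the controls. The groups lay next to each other without overlap, and the log2 fold change was -0.29 ± 0.07 (edgeR adjusted p = 0.00737). Against the 2 controls of number series 100019 alone it was -0.17 and no longer called (adjusted p = 0.0966). Sesn1 (chr10:41809935-41908424, plus strand) had 66.1, 74.2, 70.5, 77.3 and 66.6 CPM in the Atr/Bax/Bak-deleted cerebella, against 75.8, 77.7, 80.3 and 84.7 CPM in the controls. The highest Atr/Bax/Bak-deleted sample lay above the lowest control, the log2 fold change was -0.15 ± 0.06 (edgeR adjusted p = 0.0453), and the call held in 12 of 20 alternative settings, with adjusted p-values up to 0.259. It was lost without replicate 1, 3 or 5 of the Atr/Bax/Bak-deleted group and without replicate 3 or 4 of the controls.

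Sesn2, the sestrin that is also a target of the stress factor ATF4, had 68.9, 74.5, 80.4, 73.7 and 77.7 CPM in Atr/Bax/Bak-deleted cerebella, against 23.5, 23.7, 27.6 and 26.3 CPM in controls. Its log2 fold change was 1.59 ± 0.06, with no overlap, while that of Sesn3 was 0.11 ± 0.05 and was not called (edgeR adjusted p = 0.114). Per transcript length, Sesn1 was at 57.6 ± 3.67 TPM in Atr/Bax/Bak-deleted cerebella and 62.0 ± 3.04 TPM in controls (SD).

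**Figure D2:**
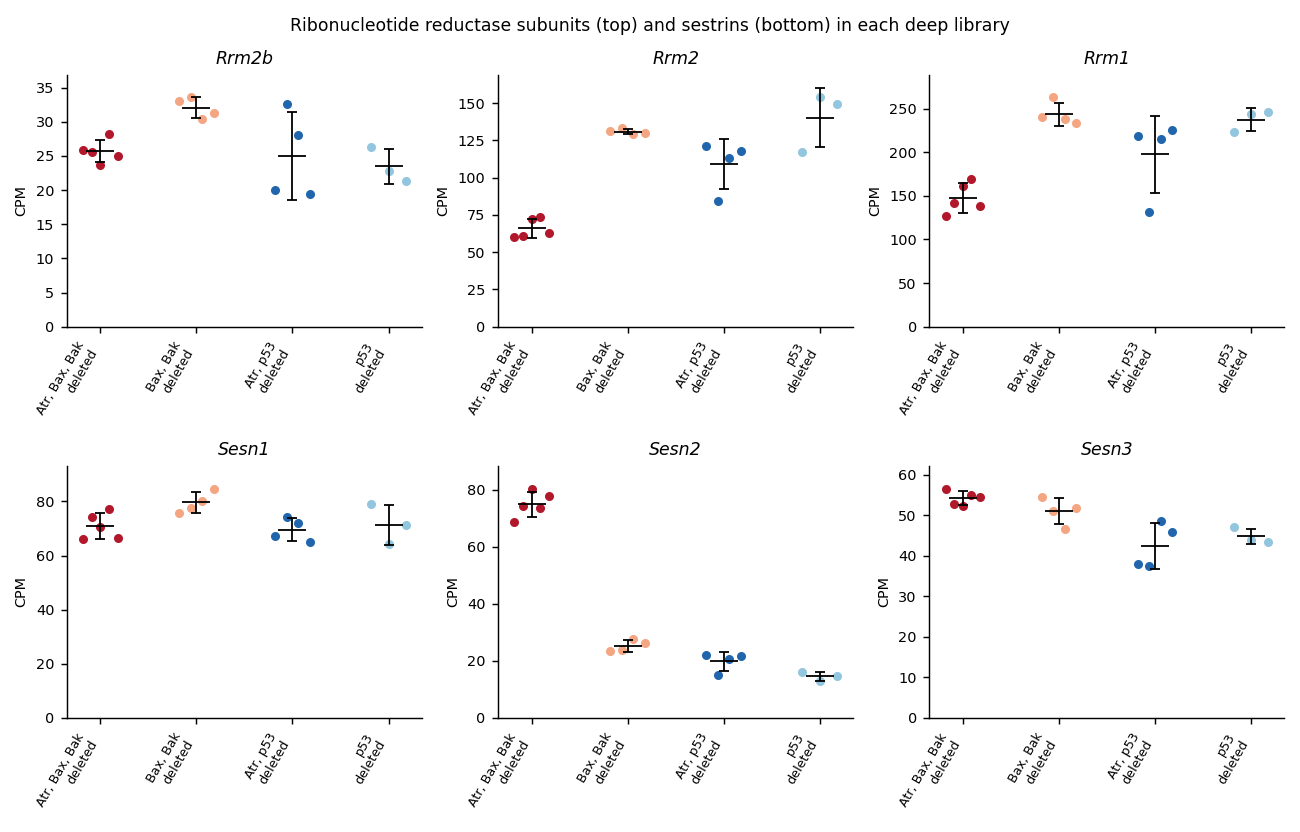
Level of the ribonucleotide reductase subunits Rrm2b, Rrm2 and Rrm1 (top) and of the sestrins Sesn1, Sesn2 and Sesn3 (bottom) in every deep library, in CPM on the vertical axis, with the group mean ± SD in black. Rrm2 is at 60.1 to 73.7 CPM in the Atr/Bax/Bak-deleted samples and Sesn2 at 68.9 to 80.4 CPM, both apart from all other samples, while Sesn1 overlaps between groups.

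Ephx1 (chr1:180976210-181020904, minus strand) had 17.1, 15.7, 17.4, 14.6 and 14.3 CPM in the Atr/Bax/Bak-deleted cerebella and 13.6, 7.63, 4.91 and 5.47 CPM in the controls. The first control came close to the Atr/Bax/Bak-deleted samples, so that the groups were separated by less than 1 CPM although the log2 fold change was 1.03 ± 0.28 (edgeR adjusted p = 0.0142). The higher pair of controls, 13.6 and 7.63 CPM, is of number series 100019 and the lower pair of series 1842. Ephx1 was called in all 20 alternative settings, with log2 fold changes from 0.59 against the controls of series 100019 alone to 1.58 against those of series 1842 alone. Markers of choroid plexus, a tissue that lies next to the cerebellum, moved with Ephx1: their sum over 4 genes was 2694, 80.3, 1077, 8.16 and 18.8 CPM in the Atr/Bax/Bak-deleted cerebella and 3686, 1741, 27.8 and 27.5 CPM in the controls. In each group the 2 libraries with the largest sums had the 2 highest levels of Ephx1. In the libraries with sums up to 80.3 CPM, Ephx1 was at 15.7, 14.6 and 14.3 CPM in the Atr/Bax/Bak-deleted cerebella and at 4.91 and 5.47 CPM in the controls. The soluble epoxide hydrolase gene Ephx2 rose by 0.71 ± 0.10 on the log2 scale, to 10.03 ± 0.636 CPM in Atr/Bax/Bak-deleted cerebella, against 6.21 ± 0.718 CPM in controls (SD).

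Trp53inp1 (chr4:11156431-11174379, plus strand) had the largest difference of the 10 genes, with 281, 323, 326, 342 and 288 CPM in the Atr/Bax/Bak-deleted cerebella, against 88.5, 86.4, 107 and 106 CPM in the controls. Each Atr/Bax/Bak-deleted value was above every control by a wide margin. The log2 fold change was 1.70 ± 0.09 (edgeR adjusted p = 4.68e-07). Its relative Trp53inp2 was not called (-0.15 ± 0.07, adjusted p = 0.122). The processed transcript Trp53inp1-202 rose by 2.06 ± 0.14 on the log2 scale and the coding transcript Trp53inp1-201 by 1.46 ± 0.09. The share of Trp53inp1-202 in the gene's counts was 31.6% ± 2.00 in Atr/Bax/Bak-deleted cerebella and 23.5% ± 3.52 in controls (SD, two-sided exact permutation p = 0.0159, the smallest possible, adjusted over 12 such tests p = 0.0635). Only 30 of its 31-base words occur in no other transcript of the gene, so this split leans on few reads.

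Ak1 (chr2:32621758-32635058, plus strand) had 69.5, 78.2, 73.7, 73.8 and 75.8 CPM in the Atr/Bax/Bak-deleted cerebella, against 36.9, 34.1, 29.8 and 33.1 CPM in the controls. The groups were widely apart, with a log2 fold change of 1.17 ± 0.06 (edgeR adjusted p = 6.42e-07). The related adenylate kinase genes Ak3 (-0.07 ± 0.05) and Ak4 (0.02 ± 0.06) were not called. The transcripts of Ak1 differed in the size of their rise, though not by a simple split into upstream and downstream starts. Ak1-201, which starts at chr2:32629504, had 25.3, 34.5, 29.4, 32.1 and 32.2 CPM in Atr/Bax/Bak-deleted cerebella and 9.78, 6.35, 6.37 and 9.24 CPM in controls. Ak1-202, which starts at chr2:32625437, had 35.9, 34.0, 36.7, 33.3 and 35.9 CPM in Atr/Bax/Bak-deleted cerebella and 25.2, 26.3, 21.3 and 21.8 CPM in controls. Both were apart between the groups, and their log2 fold changes were 1.90 ± 0.17 for Ak1-201 (edgeR adjusted p = 0.000199) and 0.52 ± 0.08 for Ak1-202 (edgeR adjusted p = 0.00278).

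The retained-intron transcript Ak1-204, which starts at chr2:32629521, rose by 2.59 ± 0.19 on the log2 scale, to 4.92 ± 0.807 CPM in Atr/Bax/Bak-deleted cerebella, against 0.784 ± 0.0520 CPM in controls (SD). Ak1-203, which starts furthest upstream at chr2:32621758, was at 2.63 to 3.21 CPM in Atr/Bax/Bak-deleted cerebella and at 0 to 1.05 CPM in controls, with a large estimate that was not called (2.30 ± 0.75, edgeR adjusted p = 0.0676). Together Ak1-201 and Ak1-204 made up 47.9% ± 3.82 of the gene's counts in Atr/Bax/Bak-deleted cerebella and 25.9% ± 4.29 in controls, without overlap (two-sided exact permutation p = 0.0159, the smallest possible, adjusted p = 0.0635 over the 12 share tests). In the p53-deleted background these shares were 34.7% ± 5.09 in Atr/p53-deleted cerebella and 31.03% ± 5.80 in p53-deleted controls, and they overlapped (exact permutation p = 0.457). The share tests were chosen after the transcript values were seen. Ak1-201 holds 45 of its 31-base words in no other Ak1 transcript and Ak1-202 holds 1, so kallisto told the starts apart by few reads. The decamer stood in the window of Ak1-202, the start with the smaller estimated rise, and not in that of Ak1-201. Its part in these levels was not tested.

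**Figure D3:**
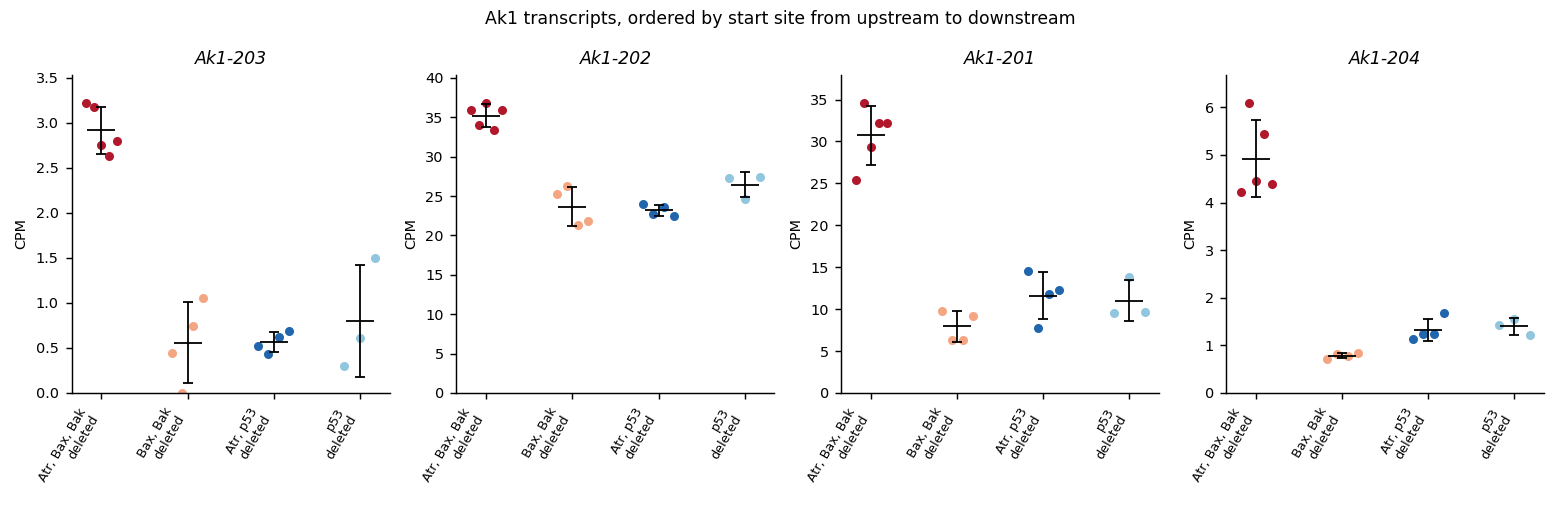
Level of 4 Ak1 transcripts in every deep library, in CPM on the vertical axis, ordered by start from upstream (left) to downstream (right), with the group mean ± SD in black. The Atr/Bax/Bak-deleted samples are above all others in each transcript; in Ak1-202 the distance is smallest for its level, with 33.3 to 36.7 CPM there and 21.3 to 26.3 CPM in the Bax/Bak-deleted controls.

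Over the 21 transcripts of the 10 genes with a mean of at least 1 CPM, 10 were called higher and 2 lower. Of all transcripts tested, whatever their level, 15.6% were called, 5.78% higher and 9.86% lower. The mean was over all deep libraries, so a transcript could pass through its level in the Atr/Bax/Bak-deleted cerebella. There Trp53inp1-204, called higher, averaged 2.77 CPM, against 0.65 in Bax/Bak-deleted, 0.33 in Atr/p53-deleted and 0.28 in p53-deleted cerebella. Ak1-203, not called, averaged 2.91 CPM there, against 0.56, 0.57 and 0.80 CPM in the same other groups. With p53 deleted none of the 21 was called, where 0.00956% of transcripts were. The transcripts called lower without Bax and Bak were Rrm2b-201 (-0.38 ± 0.07) and Tigar-201 (-0.36 ± 0.08). Sesn1 has a pair of start sites, and neither of its transcripts was called: Sesn1-201, downstream of the decamer shown above, was at -0.18 ± 0.09 (edgeR adjusted p = 0.203) and Sesn1-202 at -0.32 ± 0.10 (adjusted p = 0.0554). The main transcript of Xpc was at 0.13 ± 0.06 (adjusted p = 0.191), and none of the 4 Ddb2 transcripts was called, so the small rises of these genes were not resolved by transcript.

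Per transcript length, the order of levels in the Atr/Bax/Bak-deleted cerebella was Trp53inp1 (139.8 ± 8.59 TPM), Ak1 (96.1 ± 5.11), Sesn1 (57.6 ± 3.67), Ercc5 (39.2 ± 2.22), Ephx1 (22.8 ± 1.92), then Xpc (16.8 ± 0.604), Tigar (15.4 ± 0.881), Rrm2b (14.8 ± 1.005), Ddb2 (13.8 ± 1.41) and Polk (13.1 ± 0.297 TPM, SD). In the Bax/Bak-deleted controls Sesn1 was highest (62.0 ± 3.04 TPM), followed by Trp53inp1 (41.7 ± 4.98) and Ak1 (40.8 ± 3.81 TPM), which did not differ beyond their spread, and Polk was lowest (5.65 ± 0.492 TPM). From Tigar down to Polk the neighbours in the Atr/Bax/Bak-deleted order were within about an SD of each other. TPM are scaled within each library, and no test was run on them.

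With p53 deleted, none of the 10 genes was called when Atr was also deleted, in a comparison where 0.0461% of 17361 tested genes were called. None reached an unadjusted p of 0.05 either, and none was called in 18 alternative settings, DESeq2 and limma-voom included. All 10 overlapped between the groups, where 8.21% of genes did not. The log2 fold changes ran from -0.15 to 0.33 with a median of -0.00, against 0.01 over all genes tested. Within series 1843, which leaves 4 Atr/p53-deleted libraries and 1 control that is assumed to vary like them, the log2 fold changes ran from -0.19 to 0.34, and 4 of the 10 had the other sign. These p-values do not show that nothing changed, and the intervals below give sizes that the data leave room for. The intervals use a normal margin, which makes no allowance for the few libraries, so they are somewhat too narrow.

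Trp53inp1 had 39.3, 65.9, 55.9 and 35.1 CPM in the Atr/p53-deleted cerebella, against 56.0, 52.3 and 47.1 CPM in the p53-deleted controls. The Atr/p53-deleted values lay on both sides of the controls, with a log2 fold change of -0.07 (95% interval -0.46 to 0.32). Polk had 7.04, 9.89, 8.69 and 8.49 CPM in Atr/p53-deleted cerebella and 8.11, 8.20 and 8.25 CPM in p53-deleted controls (0.07, interval -0.21 to 0.34). Ak1 had 40.4, 32.8, 37.7 and 37.1 CPM in Atr/p53-deleted cerebella and 39.2, 40.8 and 39.9 CPM in p53-deleted controls (-0.10, interval -0.28 to 0.08). For these 3 genes the upper bounds of 0.32, 0.34 and 0.08 lie below the rises of 1.70, 1.18 and 1.17 seen without Bax and Bak.

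The excision repair genes were likewise mixed between the groups. Ercc5 had 35.6, 33.6, 36.6 and 38.7 CPM in Atr/p53-deleted cerebella and 34.6, 39.4 and 38.0 CPM in p53-deleted controls (-0.04, interval -0.21 to 0.14). Xpc had 23.2, 20.4, 20.5 and 24.0 CPM in Atr/p53-deleted cerebella and 21.1, 20.9 and 21.5 CPM in p53-deleted controls (0.07, interval -0.12 to 0.25). Ddb2 was the gene with the largest estimate, with 11.9, 15.2, 8.42 and 11.2 CPM in Atr/p53-deleted cerebella and 9.26, 9.10 and 9.66 CPM in p53-deleted controls. Of its Atr/p53-deleted samples 3 were above all controls and 1 below, the fold change was 0.33 ± 0.18 (edgeR adjusted p = 0.801), and its interval of -0.02 to 0.68 holds the 0.37 seen without Bax and Bak.

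Rrm2b was scattered, with 19.98, 32.6, 28.1 and 19.4 CPM in Atr/p53-deleted cerebella and 26.3, 22.8 and 21.3 CPM in p53-deleted controls (0.10, interval -0.26 to 0.46). Its highest value, like those of Ddb2 and Trp53inp1 in that group, came from replicate 2, and without that sample the log2 fold changes were -0.05 for Rrm2b, 0.18 for Ddb2 and -0.24 for Trp53inp1, none of them called. Per transcript length, the Rrm2b values of these 4 libraries were 12.1, 13.3, 14.3 and 14.0 TPM, in another order. Tigar had 29.2, 25.8, 28.7 and 30.2 CPM in Atr/p53-deleted cerebella and 30.2, 28.3 and 26.4 CPM in p53-deleted controls (0.02, interval -0.16 to 0.20). Sesn1 had 67.2, 74.1, 72.0 and 64.8 CPM in Atr/p53-deleted cerebella and 78.9, 64.2 and 71.2 CPM in p53-deleted controls (-0.03, interval -0.21 to 0.15). The groups overlapped in all of these genes. Ephx1 had 4.61, 4.69, 4.69 and 4.31 CPM in Atr/p53-deleted cerebella and 4.17, 5.25 and 5.90 CPM in p53-deleted controls (-0.15, interval -0.46 to 0.16), levels near the lower pair of Bax/Bak-deleted controls.

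The 10 related genes gave no call either by edgeR, DESeq2 or limma-voom, with 3 at an unadjusted p below 0.05 (Sesn2, Rrm2 and Trp53inp2), where 6.58% of all genes tested were. Sesn2 had the largest estimate of them, with 22.1, 15.1, 20.7 and 21.8 CPM in Atr/p53-deleted cerebella and 16.2, 12.9 and 14.7 CPM in p53-deleted controls (0.46 ± 0.15, edgeR adjusted p = 0.612). Rrm2 had 121, 84.1, 113 and 118 CPM in Atr/p53-deleted cerebella and 117, 154 and 149.5 CPM in p53-deleted controls (-0.35 ± 0.14, adjusted p = 0.726). The Rrm2 value of the control of series 1843, 117 CPM, lay among the Atr/p53-deleted values, which are of the same series. In both genes replicate 2 was the lowest Atr/p53-deleted sample. Trp53inp2 had 140.9, 160.5, 151 and 140.4 CPM in Atr/p53-deleted cerebella and 161, 176 and 185 CPM in p53-deleted controls, without overlap (-0.22 ± 0.09, adjusted p = 0.705).

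**Figure D4:**
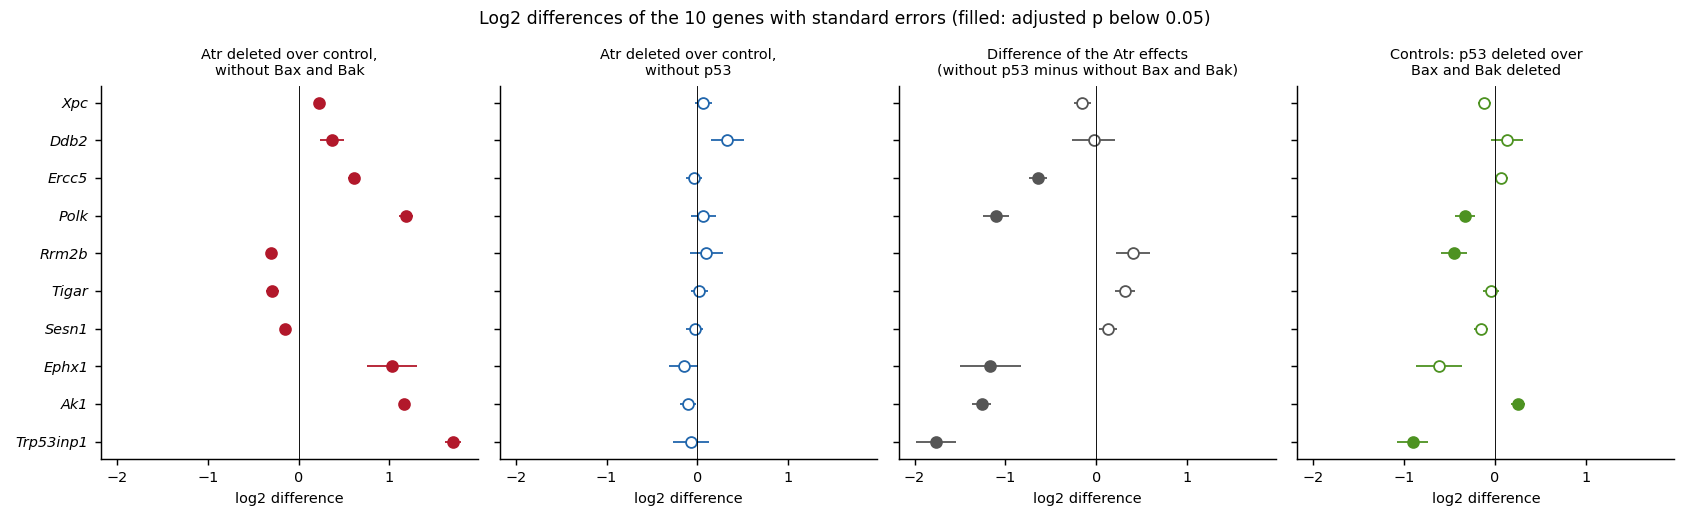
Log2 differences of the 10 genes (horizontal axis) with standard errors in 4 comparisons, one panel each; filled points had an adjusted p below 0.05. In the first panel 7 genes lie right of 0 and 3 left of it, all filled; in the second all points are open and lie between -0.15 and 0.33.

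The difference between these Atr effects was tested directly, as the effect without p53 minus the effect without Bax and Bak over the 16 deep libraries. It was called for 5 of the 10 genes, all negative, where 16.1% of 18189 tested genes were called, 8.05% of the tested genes in each direction. The differences were -1.76 ± 0.22 for Trp53inp1 (edgeR adjusted p = 0.000144), -1.26 ± 0.10 for Ak1 (2.09e-06), -1.17 ± 0.33 for Ephx1 (0.0260), -1.11 ± 0.14 for Polk (0.000123) and -0.64 ± 0.10 for Ercc5 (0.000557). The difference of Ephx1 lost its call without replicate 4 of the Bax/Bak-deleted controls (adjusted p = 0.0503) and without replicate 2 or 3 of the p53-deleted controls (0.0623 and 0.0840). For Xpc (-0.15, interval -0.33 to 0.02), Ddb2 (-0.03, interval -0.49 to 0.43) and Sesn1 (0.13, interval -0.07 to 0.33) no difference was shown. For Tigar and Rrm2b, which fell without Bax and Bak, the difference was not called either. It was 0.32 for Tigar (interval 0.09 to 0.54, edgeR adjusted p = 0.0691) and 0.41 for Rrm2b (interval 0.04 to 0.78, adjusted p = 0.156). Both of these intervals lay above 0, with unadjusted edgeR p-values of 0.0133 and 0.0457. The Tigar difference was called in 6 of 25 alternative settings, one of them without replicate 2 of the Atr/p53-deleted group (0.36, adjusted p = 0.0280). The median over the 10 genes was -0.40, against -0.02 over all genes tested. The comparison shares its samples with the others, and number series and background cannot be told apart in it.

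The controls themselves differed. In p53-deleted controls, set against Bax/Bak-deleted controls, 3 of the 10 genes were lower and 1 was higher, where 18% of 18189 tested genes were called, 8.71% lower and 9.32% higher. Trp53inp1 averaged 51.8 ± 4.49 CPM in p53-deleted controls and 97.1 ± 11.2 CPM in Bax/Bak-deleted controls (SD), a log2 difference of -0.91 ± 0.17 (SE, edgeR adjusted p = 0.00290). Polk averaged 8.19 ± 0.0691 CPM in p53-deleted controls and 10.3 ± 1.12 CPM in Bax/Bak-deleted controls (-0.33 ± 0.11, adjusted p = 0.0440). Rrm2b averaged 23.5 ± 2.52 CPM in p53-deleted controls and 32.1 ± 1.51 CPM in Bax/Bak-deleted controls (-0.45 ± 0.14, adjusted p = 0.0392). All 3 were apart between the groups, as was Ak1, which averaged 40.0 ± 0.799 CPM in p53-deleted controls and 33.5 ± 2.91 CPM in Bax/Bak-deleted controls (0.26 ± 0.08, adjusted p = 0.0311). Trp53inp1 was called in all 19 alternative settings, but Rrm2b and Ak1 in 10 of them and Polk in 6. Without any one of the p53-deleted controls, the calls of Polk and Ak1 were lost, and Rrm2b lost its call without replicate 2 or 3 of these controls or any one of the Bax/Bak-deleted controls. Without replicate 1, 2 or 3 of the Bax/Bak-deleted controls Polk was not called, and without replicate 2, 3 or 4 of them Ak1 was not.

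Xpc was also apart between the controls, at 21.2 ± 0.277 CPM in p53-deleted controls and 23.0 ± 0.387 CPM in Bax/Bak-deleted controls, but was not called (adjusted p = 0.248). In 31.5% of genes these groups did not overlap. Ephx1 was not called (-0.62, adjusted p = 0.101): set against the Bax/Bak-deleted controls of series 100019 alone the difference was -1.05 (adjusted p = 0.00551), and against those of series 1842 alone it was not called. Sesn2, which was lower by 0.80 ± 0.12 on the log2 scale, averaged 14.6 ± 1.65 CPM in p53-deleted controls and 25.3 ± 2.02 CPM in Bax/Bak-deleted controls. Genotype background and deposited table cannot be told apart here.

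Other p53 targets give the scale of these changes. With Bax and Bak deleted, 20 of 22 targets of arrest, feedback and death were higher and none was lower (median log2 fold change 1.01), with Fas, a death receptor (4.09 ± 0.17), Cdkn1a, the cyclin-dependent kinase inhibitor p21 (2.26 ± 0.10), and Eda2r, a receptor of the TNF family (2.09 ± 0.10), at the smallest p. Of 20 other metabolic and antioxidant targets 13 were higher and 1 was lower, with a median of 0.27, among them Dcxr (2.34 ± 0.12), a sugar and carbonyl reductase, and Lpin1 (1.15 ± 0.06), which acts in lipid synthesis. With p53 deleted none of the 22 and none of the 19 tested metabolic targets was called by edgeR, DESeq2 or limma-voom, with 1 and 2 genes at an unadjusted p below 0.05. The difference of the Atr effects was called negative for 18 of 22 and for 7 of 20, and positive for none of either list. Between the controls, p53-deleted against Bax/Bak-deleted, 5 of the 22 were lower and 3 higher, and 1 of the 20 metabolic targets moved each way.

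**Figure D5:**
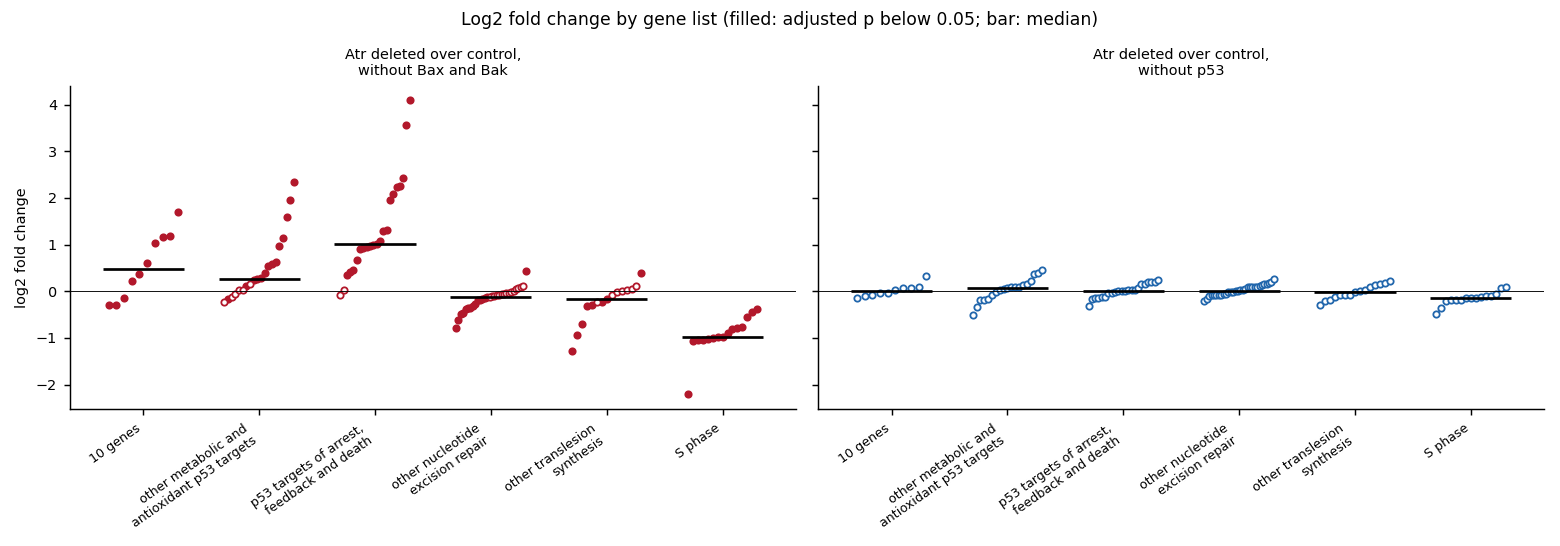
Log2 fold change on Atr deletion (vertical axis) of the genes of 6 lists, without Bax and Bak (left) and without p53 (right), with 1 point per gene, filled where the adjusted p was below 0.05, and the list's median as a bar. On the left the medians run from 1.01 for targets of arrest, feedback and death and 0.49 for the 10 genes to -0.97 for S phase genes; on the right they lie between -0.14 and 0.07.

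RNA of cell type markers moved with Atr deletion too, and edgeR called such markers only in the background without Bax and Bak. There 10 of 12 granule progenitor markers were lower and 1 higher, with sums of 2037 to 2332 CPM in Atr/Bax/Bak-deleted cerebella and 2940 to 3501 CPM in controls, and 6 of 12 granule neuron markers were lower (3398 to 3778 CPM in Atr/Bax/Bak-deleted cerebella, 4401 to 5150 CPM in controls). Of the 7 markers of cerebellar identity, 4 of which are also among the granule progenitor markers, 6 were lower. Of 13 markers of astrocytes and Bergmann glia 10 were higher and 1 lower, with sums of 6215 to 7662 CPM in Atr/Bax/Bak-deleted cerebella and 4848 to 5200 CPM in controls. Also higher were 9 of 10 Purkinje cell markers, 6 of 6 interneuron markers, 7 of 9 microglial markers and 6 of 8 oligodendrocyte lineage markers, of which 1 was lower. Their sums were 2915 to 4119, 644 to 772, 171 to 212 and 1138 to 2443 CPM in Atr/Bax/Bak-deleted cerebella, against 2338 to 2728, 426 to 463, 120 to 162 and 697 to 1190 CPM in controls. Endothelial markers were higher in 2 of 7 and red cell markers in 1 of 6. Of all genes tested there, 22.5% were called higher and 22% lower. None of the 6 meningeal or 4 choroid plexus markers was called, but these varied widely between libraries. Choroid plexus sums ran from 8.16 to 2694 CPM in Atr/Bax/Bak-deleted cerebella and from 27.5 to 3686 CPM in controls. Meningeal sums ran from 575 to 726 CPM and from 415 to 1065 CPM in the same groups. With p53 deleted, none of 108 markers of cell types and of S phase was called by edgeR or limma-voom. DESeq2 called 4 of them, 3 of the oligodendrocyte lineage. At an unadjusted edgeR p below 0.05 there were 16, or 14.8%, against 6.58% of all genes tested. Sums did not overlap for granule progenitor markers, at 1853 to 2495 CPM in Atr/p53-deleted cerebella and 2544 to 2767 CPM in p53-deleted controls. Nor did those of oligodendrocyte lineage markers, at 430 to 499 CPM in Atr/p53-deleted cerebella and 516 to 737 CPM in p53-deleted controls. The sums of the other marker lists overlapped. No marker had a mean of 0 in any group, and the part of these shifts in the differences of the 10 genes was not tested.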

How the data were processed

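Per the labels' protocols, RNA of postnatal day 3 cerebella was extracted with the RNeasy kit and sequenced as stranded TruSeq libraries of poly-A RNA. The tables deposited by the authors, 1 per background, hold estimated counts for each Ensembl transcript in each of 2 lanes. Of the tools and builds, kallisto 0.42.4, edgeR, GRCm38 and mm9 appear in the submitters' processing notes without their roles, and the strand setting of the counting is not given in the sources used here. kallisto divides reads among similar transcripts, so counts of single transcripts are uncertain. Lanes were added, and the transcript values of each GENCODE M21 gene (GRCm38) were then summed and rounded. Of 94080 transcript identifiers 92372 matched, and the rest held 0.746% to 1.01% of the counts of the deep libraries and stayed out.

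Samples were grouped by genotype label. The shallow library, whose lane columns were identical and counted once, was left out. Each background was fitted by itself in edgeR 4.0.16 (R 4.3.3) with TMM scaling, the default filter, robust quasi-likelihood F-tests and Benjamini-Hochberg adjustment over all genes tested at 0.05; the difference of the Atr effects and the comparison of controls came from a joint fit of 16 libraries. Standard errors are of log2 fold changes and intervals are those estimates ± a normal 95% margin. CPM per sample use a joint TMM scaling, and TPM use annotated transcript lengths. Transcripts were fitted in the same way. Transcript shares were compared by exact permutation over samples. Promoter windows are from RefSeq (GRCm38.p6). The fits were also run on simulated counts, drawn for independent samples with the spread estimated from these data. Such counts cannot address number series or shared litters. The alternatives tried were DESeq2 1.42.0, limma-voom (limma 3.58.1), scaling by median of ratios or by the upper quartile, a filter at a mean of 1 CPM or none, single lanes, the shallow library kept, joint or separate fits, controls of 1 number series, and each library left out. The 10 genes and all lists were chosen with earlier results of these data known. All 10 genes are named, as are the related genes except 1 that is not reported here, with up to 3 called genes of smallest p from each repair and p53 list. Figures were drawn with matplotlib 3.10.9 in Python 3.11.15.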

Additional observations from a re-analysis of the deposited data

Results flagged for a closer look

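The effect of Atr deletion differed between the backgrounds, by the test of the difference itself, for 5 of the 10 genes. Of 18189 genes tested 16.1% were called, 8.05% in each direction. Number series and background cannot be told apart in this test. The log2 effect without p53 minus that without Bax and Bak was -1.76 for Trp53inp1, -1.26 for Ak1, -1.17 for Ephx1, -1.11 for Polk and -0.64 for Ercc5. The call of Ephx1 was held in 22 of 25 alternative settings, those of the other named genes in all 25.

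In the Atr/Bax/Bak-deleted group 1 sample lay far from the others in Tigar, at 21.5 CPM where the other 4 were at 23.8 to 24.4 CPM. It was the only such sample among 30 gene and group combinations examined, and chance gives about 1 in 20.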

How the results depend on the processing

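Of 1077 values recomputed for 53 results under the alternatives, 972 kept their side of the threshold or, for counts, stayed within 1.5 times. Of the rest 56 lost a call, 9 gained one and 40 counts moved by over 1.5 times. Among values called in either setting, 0 reversed their direction. Of 410 values called in neither setting, 25 had the other sign, and these are among the 972. Without Bax and Bak, Trp53inp1, Polk, Ak1, Ephx1, Ercc5 and Xpc were called in all 20 alternatives and Rrm2b in 19, lost in the joint fit (adjusted p = 0.0566). The count of the 10 genes called lower was 1 in the joint fit and 1 with controls of series 100019 only; leaving out libraries gave 2 to 3 lower, 6 to 7 higher and 6713 to 7770 genes in all. Without p53, where 8 genes of the whole table were called, the count was 14 with no filter, 128 with DESeq2, 4 with limma-voom, 4 in the first lane, 23 with the shallow library, which by its name may come from the same mouse as another, 70 in the joint fit, 5 within series 1843 (4 libraries against 1), and 2 to 13 with libraries left out. For the difference of the effects, Tigar was called positive, a count of 1, with a mean of at least 1 CPM, with DESeq2 and in the first lane. Leaving out libraries gave 0 to 1 positive and 4 to 5 negative calls, and 1628 to 3562 genes, the fewest without replicate 3 (1628) or 2 (1826) of the p53-deleted controls. Between the controls the count of the 10 called higher was 0 with no filter, in the second lane and with controls of series 100019 only, and that called lower was 1 with controls of series 1842 only; over all genes 1856 were called with controls of series 100019 only. Leaving out libraries gave 0 to 1 higher, 1 to 2 lower and 1881 to 2746 genes, the fewest without replicate 3 or 2 of the p53-deleted controls. The causes were not tested. Transcript calls ran from 9 to 13 under settings chosen after seeing the data. No paired analysis was possible because the labels give no replicate numbers, only sample names. With 3 to 5 libraries a group, the spread between few samples limits the precision. How much the counts themselves add, for genes of low count, was not tested.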
